A study of Torulaspora delbrueckii with 9 samples.

Results

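The genes described here are SIR1, SIR2, SIR4, RAP1 and ABF1 of the budding yeast Torulaspora delbrueckii, 5 of the 5174 genes in the annotation of assembly ASM24337v1. They were taken by symbol, and the peaks of the origin recognition complex (ORC) within 10 kb of each gene were collected. For SIR1 the span from 45000 to 85000 on chromosome 5 was added. This gave 63 of the 1900 peaks in 6 deposited peak lists, of which 39 belonged to SIR1, 9 to ABF1, 8 to SIR4, 7 to RAP1 and 0 to SIR2.

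ORC is the protein assembly that marks origins of DNA replication. In Saccharomyces cerevisiae it also binds the silencers beside the silent mating-type genes, next to the DNA-binding proteins Rap1 and Abf1, which are general regulatory factors that act at many promoters as well. There Sir1 binds Orc1 and helps to bring in Sir4, a scaffold of silent chromatin, and Sir2, the enzyme that removes acetyl groups from histones. Sir3, the remaining silencing protein of that yeast, is a relative of Orc1. These roles come from Saccharomyces, and the gene symbols used here are those of the gene table.

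The data are from chromatin immunoprecipitation and sequencing (ChIP-seq) of cultures grown at 30 °C in rich medium and cross-linked with 1% formaldehyde. Orc1 carried a MYC tag in strains LRY3204 (library 1) and LRY3211 (library 2), Orc2 a V5 tag in LRY3142 and LRY3143, and Orc4 a V5 tag in LRY3138 and LRY3139. The labels name 2 genomic input samples and 1 mock immunoprecipitate, all from the untagged strain JRY10156. Both libraries of each protein are described by the submitters as technical replicates, so p-values over libraries measure a spread that may be technical. Peak names give a genomic input as the control of the Orc1 lists and the mock as the control of the Orc2 and Orc4 lists, so that subunit, tag, antibody and control cannot be told apart between Orc1 and the others. The control strain number in the Orc1 peak names is not explained by the labels. Peak names also hold the word SIR for Orc1 library 1 and Kos3V5 for Orc1 library 2, which the labels do not explain. Kos is a name given to relatives of Sir1 in yeasts, and the part of such a strain difference in the results was not tested.

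The lists held from 248 (Orc4 library 2) to 408 peaks (Orc4 library 1), with median fold enrichment from 3.84 to 10.8. Fold enrichment is the authors' value per peak, the ratio of immunoprecipitate to control at the summit, and it is compared here within a list. Merging peaks that overlap by at least 1 bp gave 198 regions with a peak in all 6 lists. Depth is unknown because read counts are not part of these lists, and counting intervals could not be computed.

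ORC peaks lay near 4 of the 5 genes. Each of the 6 lists had a peak within 10 kb of SIR1, SIR4, RAP1 and ABF1, which held for 43.6% of all genes. When summits had to lie in the window the count was 3, without SIR1. The summit of its Orc1 library 2 peak was 27.4 kb away. SIR2 had no peak of any list within 10 kb, as did 36.1% of all genes. A region found in all 6 lists lay within 1 kb of SIR1, SIR4 and ABF1, against 11.2% of all genes. For SIR1 this rested on a single wide peak of Orc1 library 2, without which the count was 2, and for SIR4 on the edge of the Orc4 library 1 peak, without which it was also 2. No member was overlapped by peaks of all 6 lists, as 4.62% of all genes were. SIR1 was touched by Orc1 library 2, which touched 6.86% of all genes, and RAP1 was covered by Orc2 library 1, which touched 7.40%.

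ABF1 (TDEL_0A02360, chromosome 1, 425918 to 427213) was flanked on its left by a compact site of all 6 lists. Its mean Orc1 fold enrichment, 14.4, was number 4 of the 198 regions. The site lay in the 1605 bp between RAD27, which encodes a flap nuclease of DNA replication and repair, and ABF1. Fold enrichment was 12.2 in Orc1 library 1 and 16.7 in library 2. The Orc2 libraries gave 33.3 and 35.2, and the Orc4 libraries 34.5 and 24.6. The Orc1 library 2 value was number 4 of 300 peaks in its list, and that of library 1 was number 20 of 263. In the Orc2 and Orc4 lists the site stood between number 16 and number 27. Every one of these values was above the upper quartile of its list.

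Orc1 peaks at ABF1 were wider than those of the other subunits and reached closer to the gene. They were 1392 and 1413 bp wide, against 952 and 926 bp for Orc2 and 930 and 1017 bp for Orc4, so the groups did not overlap. Both Orc1 lists were wider than each other list at 33.8% of the 198 regions. The Orc1 peaks began at 424372 and 424361 and ended 154 and 144 bp short of ABF1, whereas the others ended 499 to 569 bp short of it. Orc1 summits were at 425102 and 425091, to the right of the Orc2 summits at 424995 and 424993 and of the Orc4 summits at 425034 and 425036. The mean offset was 82 bp toward ABF1. Summits of Orc1 lay to 1 side of all others in 68.2% of the 198 regions, so this order was common. A weaker site lay inside MTG1, named for a mitochondrial GTPase, 3696 to 3708 bp to the right of ABF1, with 2.46 in Orc2 library 1 at 430910 to 431147 and 2.12 in Orc4 library 1 at 430922 to 431211. Orc2 library 1 had a further peak there at 1.64 fold, and the other 4 lists had none. The tRNA gene TDEL0Atrna9A (418113 to 418185) in the same window was 6.18 kb from the nearest peak of any list.

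RAP1 (TDEL_0A00720, chromosome 1, 119639 to 121675) had its ORC site 3 genes away. In all 6 lists its summits, from 115736 to 115830, lay in the 445 bp between PHO13, which encodes a phosphatase, and MGS1. MGS1 encodes a DNA-dependent ATPase of genome maintenance, and the peaks ran into both genes. The Orc1 libraries had 12.4 and 10.1 fold, the Orc2 libraries 25.4 and 29.6, and the Orc4 libraries 26.7 and 19.8. The values stood at number 18 of 263 and 59 of 300 in the Orc1 lists and between number 27 and number 54 in the others. All 6 summits were 3809 to 3903 bp from RAP1, and between the site and the gene lie MGS1, YPD1 and PPN2. Orc1 peaks were 1543 and 1369 bp wide and the others 933 to 1278 bp, again without overlap, as at 33.8% of the 198 regions. Orc1 summits, at 115830 and 115808, lay to the right of the others by 66 bp on average. Orc1 summits lay to 1 side of all others in 68.2% of the 198 regions.

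The gene body of RAP1 was covered in 1 list alone. Orc2 library 1 had a peak from 118596 to 121885, 3290 bp wide, which ran from PPN2, named for a polyphosphatase, over the whole 2037 bp of RAP1 and ended before GYP7. Its fold enrichment was 2.18, number 261 of 339 in that list, with the summit at 119728 in RAP1. It was the widest peak of the list, ahead of one of 2999 bp. Orc2 library 2 and the 4 other lists had no peak there.

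SIR4 (TDEL_0B01940, chromosome 2, 343685 to 347938) was flanked by a site of all 6 lists on its right. The summits lay beyond ADK1, the adenylate kinase gene, and before MSC3, into which the peaks ran. The space between ADK1 and MSC3 is 1239 bp long. Fold values of the site were 9.87 and 13.2 in the Orc1 libraries, 12.7 and 22.0 with Orc2, and 18.8 and 16.7 with Orc4. The ratio of Orc2 library 2 to library 1, 1.73, was the second highest of the 198 regions, where the median was 1.01. The Orc2 values thus stood at number 117 of 339 and number 53 of 342 in their lists, and those of Orc1 at number 45 of 263 and number 19 of 300.

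At SIR4 the subunits did not separate by position or width. Summits were at 349547 and 349574 for Orc1, within the range of 349500 to 349593 of the others, and 1562 to 1655 bp from SIR4. Widths were 1314 and 1151 bp for Orc1 and 1108 to 1575 bp for the others. Mean fold enrichment of Orc1 divided by that of Orc2 and Orc4, which has no absolute meaning with different controls, was 0.656 at SIR4, number 53 in descending order of the 198 regions. It was 0.453 at ABF1 and 0.444 at RAP1, and the median of all was 0.498. Further right, Orc4 library 1 alone had peaks of 1.71 in MSC3 and 1.93 over HTA1, a histone H2A gene.

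SIR2 (TDEL_0D04710, chromosome 4, 864988 to 866646) lay in a stretch without ORC peaks. No list had a peak from 849777 to 921116, a length of 71.3 kb, the 12th longest of 536 such stretches in the genome, whose median was 7.23 kb. The nearest site on the left was found in all 6 lists, with peaks ending 15.2 to 15.3 kb from SIR2 and summits between PRP9 and DBP10. It had 6.29 and 8.74 fold in the Orc1 libraries, 14.5 and 17.4 in those of Orc2, and 19.4 and 16.0 in those of Orc4. On the right the nearest peaks were weak ones in TDEL0D05050, 54.5 to 54.6 kb away, in the Orc2 lists and Orc4 library 1 (1.85 to 2.45). The nearest right-hand peaks of both Orc1 lists and Orc4 library 2 were 62.4 to 62.5 kb away, with summits between SPP381 and TDEL0D05120. That site had a peak in all 6 lists. Its fold values were 9.18 and 8.92 with Orc1, 14.5 and 16.0 with Orc2, and 20.4 and 15.5 with Orc4. A gene without a listed peak may still have signal under the peak caller's threshold.

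**Figure D1:**
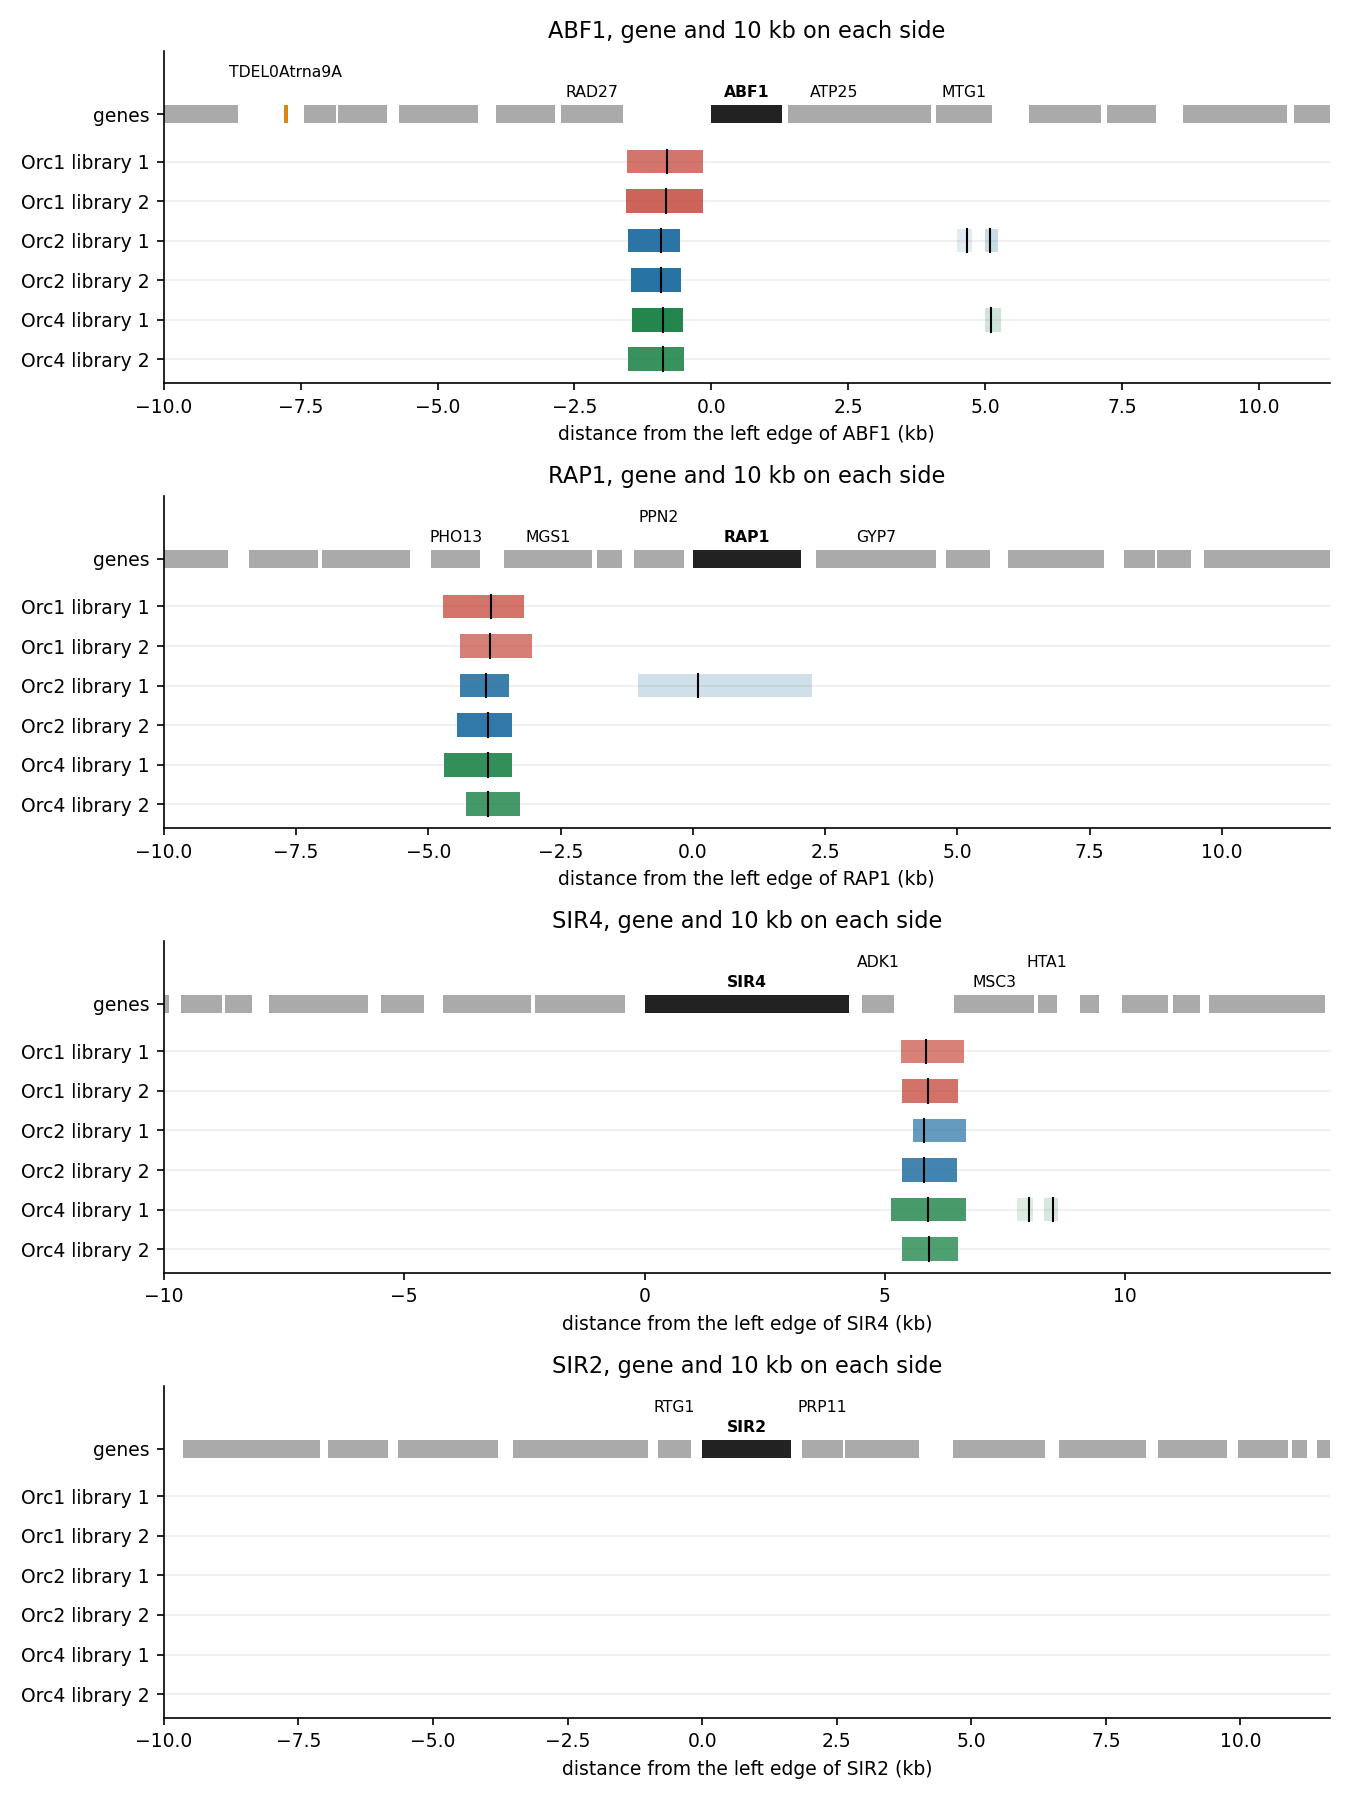
Peaks of the 6 lists at ABF1, RAP1, SIR4 and SIR2, as distance in kb from the left edge of each gene. Bars are peaks (red Orc1, blue Orc2, green Orc4), darker with higher fold enrichment, black ticks are summits, and the top row shows genes with the member in black and tRNA genes in orange. A compact site of all 6 lists stands beside ABF1, another beyond ADK1 from SIR4, and another beyond PPN2, YPD1 and MGS1 from RAP1. The 3290 bp peak over RAP1 is in Orc2 library 1 alone, and the SIR2 window is empty.

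**Figure D2:**
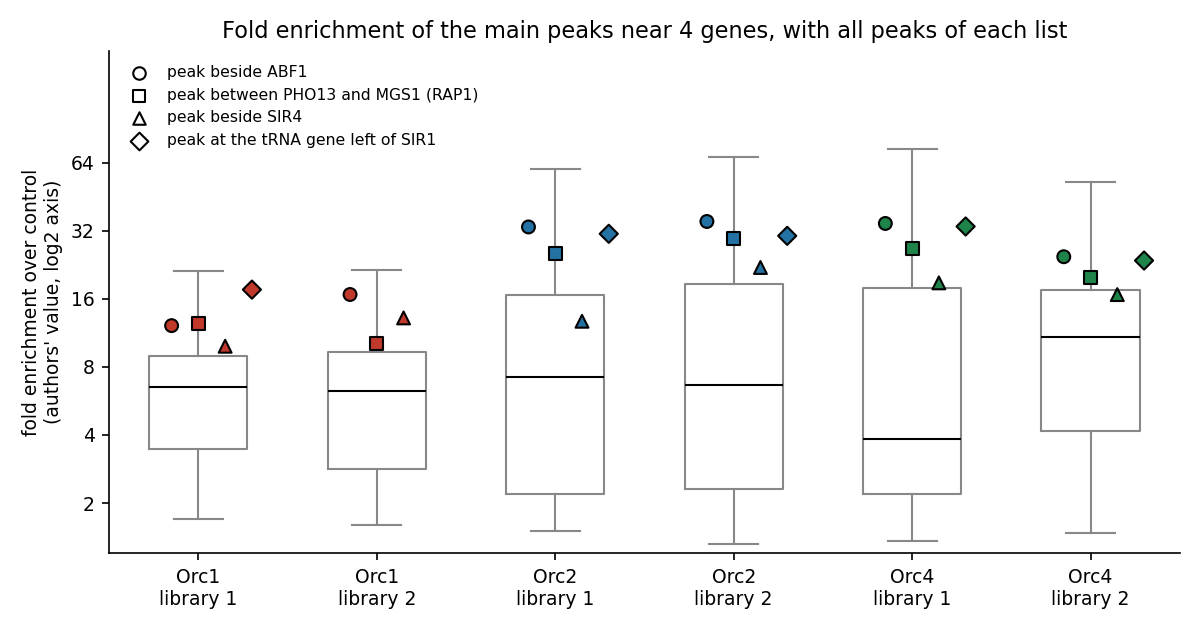
Fold enrichment over control (log2 axis) of the main peaks near ABF1, RAP1, SIR4 and SIR1, on boxes that give the quartiles, median and full range of all peaks of a list. The SIR1 marker is missing for Orc1 library 2, whose single peak there has its summit elsewhere. ABF1, at 12.2 to 35.2, lies above the box in each list, while SIR4 lies inside the box in Orc2 library 1 and in Orc4 library 2.

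SIR1 (TDEL_0E00350, chromosome 5, 79261 to 80661) stood at the right edge of a 31.6 kb peak of Orc1 library 2. Orc1 library 1 had separate peaks to the left of SIR1, with none over the 13.0 kb from 58852 to 71890. In the 40 kb span, peaks of Orc1 library 1 covered 12.3 kb and those of library 2 covered 32.2 kb. With Orc2 the covered length was 5.75 kb in library 1 and 5.68 kb in library 2, and with Orc4 it was 7.57 and 5.27 kb. Both Orc1 lists were above all others, and the Orc1 mean of 22.2 ± 14.1 kb (SD, n = 2) was 3.66 times the mean of the other 4 lists. Since the span was set around a peak already seen, these values are a description. The ratio was 2.02 without Orc1 library 2 and 5.30 without Orc1 library 1. Coverage in library 2 was 2.62 times that in library 1. The peak names of these Orc1 libraries differ in the words SIR and Kos3V5, whose part in this gap was not tested.

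**Figure D3:**
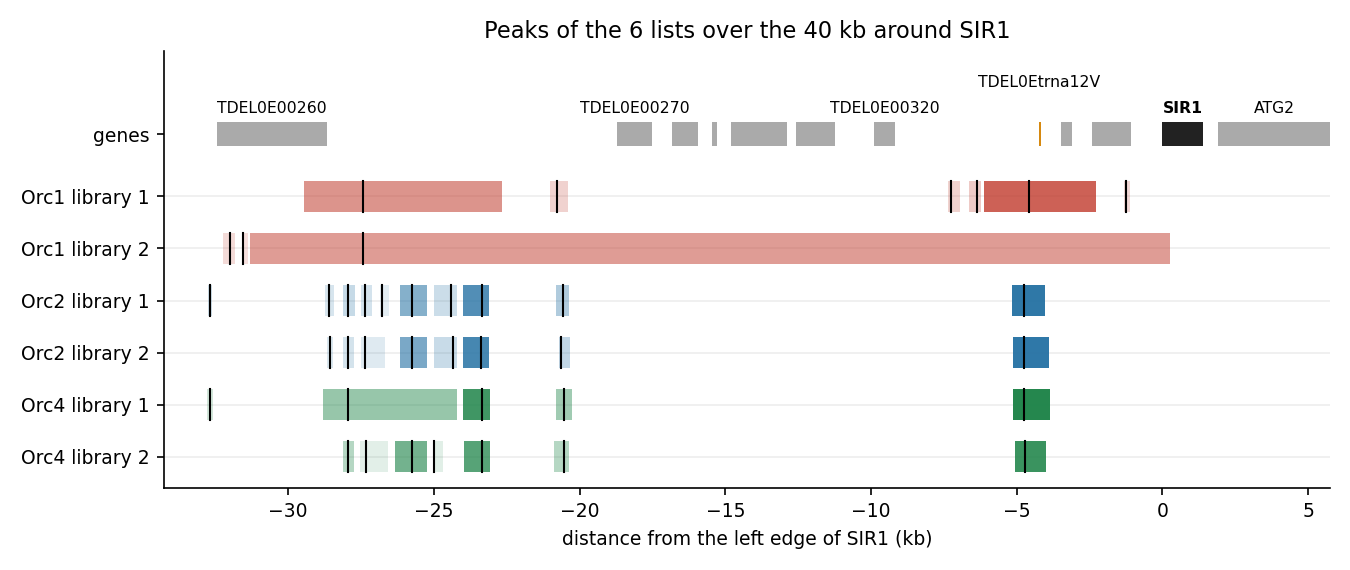
Peaks of the 6 lists over the 40 kb span around SIR1, as distance in kb from the left edge of SIR1. Bars, shades, ticks and genes are drawn as in the maps of the other genes. Orc2 and Orc4 peaks form a left cluster and a single strong peak at the tRNA gene, while the 31.6 kb peak of Orc1 library 2 spans both and ends in SIR1.

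The Orc2 and Orc4 lists resolved the span into discrete sites. Grouping their summits where neighbours were within 200 bp gave 11 sites, of which 11 lay outside genes and 4 were in all 4 lists. 9 of them fell in the 9.96 kb between TDEL0E00260 and TDEL0E00270, a pair of genes without a symbol. The strongest of these had summits from 55895 to 55917, with 17.5 and 21.0 in the Orc2 lists and 21.4 and 14.7 in the Orc4 lists. The next had summits from 53516 to 53527, with 7.45 and 8.95 for Orc2 and 9.27 for Orc4 library 2. Orc4 library 1 had there a single peak from 50454 to 55053 with its summit at 51317. That summit belonged to a site of all 4 lists from 51314 to 51334, at 2.03 to 5.33 fold. Another site of all 4 lists had summits from 58635 to 58730, at 2.78 to 4.55.

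The strongest site of the span was nearest to SIR1, between TDEL0E00320 and the tRNA gene TDEL0Etrna12V (75008 to 75081). Its summits fell within 37 bp of each other in the Orc2 and Orc4 lists, from 74501 to 74538, and lay 470 to 507 bp left of the tRNA gene and 4.72 to 4.76 kb from SIR1. Fold enrichment was 31.0 and 30.4 for Orc2 and 33.4 and 23.6 for Orc4, between number 20 and number 29 of their lists. Peaks were 1089 to 1285 bp wide and reached over the tRNA gene. Orc1 library 1 had 17.6 there, number 2 of its 263 peaks, in a peak of 3838 bp from 73151 to 76988. Its summit at 74678 was 140 to 177 bp to the right of the others and 330 bp from the tRNA gene.

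Orc1 peaks filled the spaces between these sites to different extents. In library 1 the left cluster was a single peak from 49806 to 56585, 6780 bp wide at 7.01 fold. In library 2 a peak of 31550 bp ran from 47972 to 79521 at 6.03 fold, touched 11 genes and held 9 of them whole. The summits of these peaks, at 51850 and 51849, were 1 bp apart. The nearest Orc2 and Orc4 summits were 58 to 74 bp to the right, at a site with 1.57 to 2.00 fold in 3 of those lists. By fold, the strongest Orc2 and Orc4 site of the cluster was the one at 55895 to 55917. Fold and q did not always go together there, and the Orc1 lists have another control. Orc4 library 2 had 3.22 fold with −log10 q of 121 at 51326, but 3.21 fold with 13.1 at 58730. A single fold value stands for the whole peak of Orc1 library 2, so its level at the tRNA gene is not listed.

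The middle of the span was covered in 1 library. From 60 to 70 kb, over the genes TDEL0E00270 to TDEL0E00320, library 2 covered the whole 10 kb and the other 5 lists covered 0. Library 1 had no peak from 58852 to 71890, and the Orc2 and Orc4 lists had none from 59010 to 74102. From 70 to 85 kb, Orc1 covered 4.88 and 9.52 kb and the others 1.09 to 1.29 kb. From 45 to 60 kb, Orc1 covered 7.40 and 12.6 kb and the others 4.18 to 6.29 kb. Both Orc1 lists were higher on either side, and the gap to the others was wider on the SIR1 side.

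SIR1 itself was at the border. The library 2 peak overlapped its first 261 bp in chromosome order, and the gene table gives no strand. The closest peak of library 1, of 1.99 fold in TDEL0E00340, ended 1111 bp to the left, and the closest Orc2 and Orc4 peaks ended 3859 to 4027 bp away. To the right of 79521, over the rest of SIR1 and the autophagy gene ATG2, no list had a peak within 10 kb of SIR1, and the next ones were 43.5 to 45.0 kb beyond the gene.

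The length under peaks within 10 kb of each gene was compared between Orc1 and the other subunits by an exact permutation of the 6 libraries. With 15 splits the smallest p is 0.0667, so the test cannot pass 0.05, and values were adjusted over the same test at all 5174 genes. For SIR1 the Orc1 lists covered 4880 and 10261 bp and the others 1089 to 1285 bp, a difference of 6384 bp (exact permutation p = 0.0667, two-sided, adjusted p = 0.604). The difference was 3693.5 bp without Orc1 library 2 and 9074.5 bp without Orc1 library 1. Both Orc1 lists covering more than every other list held for 10.0% of all genes. Among the 5 it held for SIR1 alone, which had been chosen with this peak known. It held for 3 of the 5, SIR1, RAP1 and ABF1, when peaks of −log10 q under 10 were left out or when Orc2 library 1 was, and for 2 with equal numbers of peaks per list. The share of all genes was not recalculated at these settings, so these counts cannot be read as a result about the members.

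**Figure D4:**
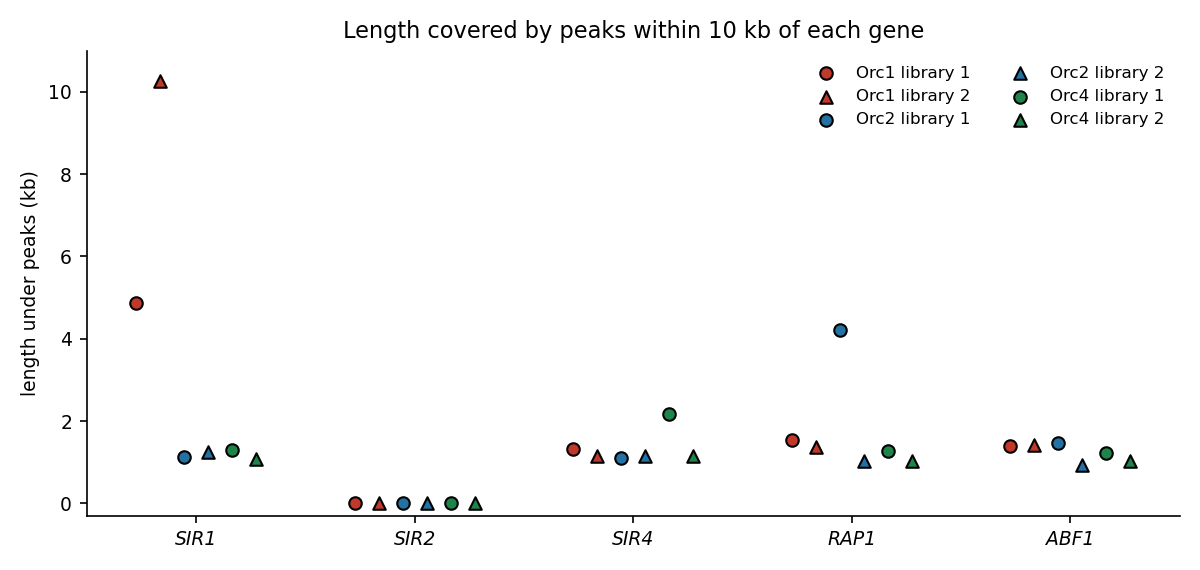
Length under peaks (kb) within 10 kb of each gene, 1 point per list, with circles for library 1 and triangles for library 2. Orc1 (red) lies at 4.88 and 10.3 kb at SIR1, above the other lists, and inside their range at the other genes, with 0 for all lists at SIR2.

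At ABF1 the Orc1 lists covered 1392 and 1413 bp and the others 926 to 1455 bp (difference 248 bp, exact permutation p = 0.267, two-sided, adjusted p = 1). The difference was 446 bp at −log10 q of at least 10 and 387 bp with equal numbers of peaks per list (exact permutation p = 0.0667 in each, the smallest possible). At RAP1 they covered 1543 and 1369 bp, against 1022 to 1278 bp in 3 other lists and 4223 bp in Orc2 library 1 (difference −433.5 bp, exact permutation p = 1, adjusted p = 1). Without Orc2 library 1, which holds the peak over the gene body, the difference at RAP1 was 344 bp in the other direction (exact permutation p = 0.2), and with peaks of −log10 q under 10 left out it was 389 bp (exact permutation p = 0.0667). At SIR4 they covered 1314 and 1151 bp and the others 1108 to 2182 bp (difference −167 bp, exact permutation p = 0.933, adjusted p = 1). Without Orc4 library 1 it was 93.8 bp in the other direction (exact permutation p = 0.2). Without the weak peaks in MSC3 and over HTA1, both of −log10 q under 10, it was −15.25 bp when all such peaks were left out (exact permutation p = 0.933). None of these tests passed the threshold.

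Among regions of all 6 lists, both Orc1 lists were wider than each other list at 33.8%. This held for the regions at SIR1, RAP1 and ABF1 and not at SIR4. The ratio of mean Orc1 width to mean Orc2 and Orc4 width was 3.66 for the SIR1 region, 1.47 at ABF1, 1.36 at RAP1 and 0.988 at SIR4, against a median of 1.13. The SIR1 region had the largest mean Orc1 width of the 198 and also the largest mean width in the other lists, since all their peaks under the library 2 peak were summed. The widest peaks of Orc1 library 1 (6.78 kb), Orc1 library 2 (31.6 kb) and Orc4 library 1 (4.60 kb) lay in the SIR1 span, which had been set around the widest of them. Those of Orc1 library 1 and Orc4 library 1 ended 22675 and 24207 bp from SIR1, outside its 10 kb window.

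**Figure D5:**
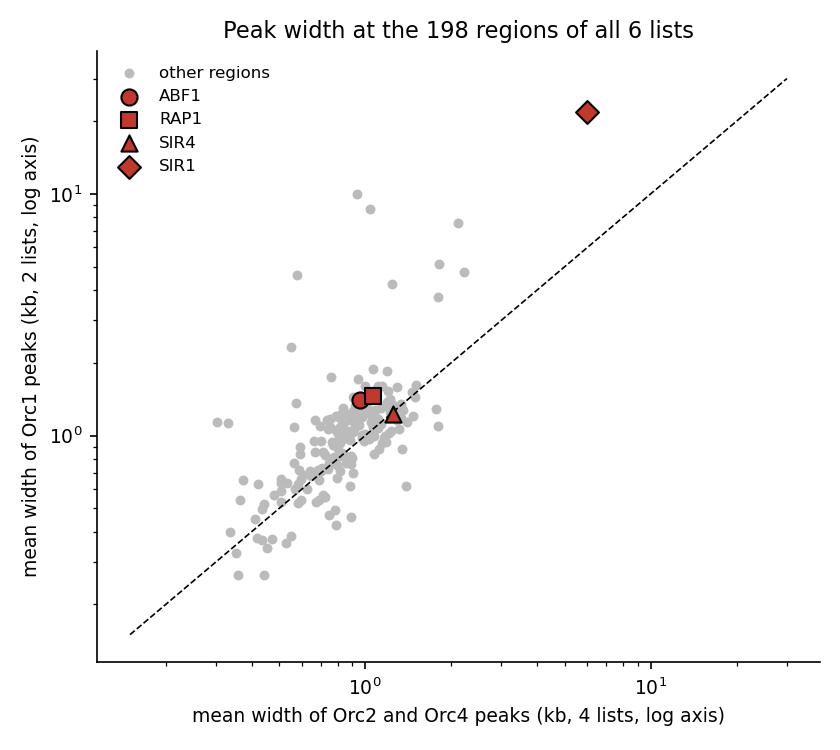
Mean width of Orc1 peaks (2 lists) against mean width of Orc2 and Orc4 peaks (4 lists) in the 198 regions found in all 6 lists, in kb on log axes. The dashed line marks equal widths. ABF1 and RAP1 lie above the line at ratios of 1.47 and 1.36, SIR4 lies on it at 0.988, and SIR1 is the point farthest to the upper right.

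Other genes of silencing, of ORC and of regulatory factors were looked up from a list of 38 symbols, of which 31 were in the gene table. A region of all 6 lists lay within 1 kb of 5 of the 31, read against the 11.2% of all genes given above. These were MCM1, which encodes a regulator of cell-cycle and mating genes, the ORC subunit genes ORC4 and ORC5, ESC2, and ASF1, which encodes a histone chaperone. The site between ARG80 and MCM1 (chromosome 2, 1234259 to 1235780) had fold values of 8.56 and 13.0 with Orc1 and of 31.6 to 51.5 with Orc2 and Orc4. The values at ESC2 were 7.63 and 5.06 (Orc1) and 8.02 to 9.96 (Orc2 and Orc4), at 379702 to 380961 on chromosome 5. Those at ASF1 were 7.96 and 9.03 (Orc1) and 18.2 to 25.4 (Orc2 and Orc4), at 216495 to 217566 on chromosome 8.

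In the same list 7 of 31 genes had a peak of each of the 6 lists within 10 kb, read against 43.6% of all genes. No peak of any list lay within 10 kb of 18 of them, as at SIR2, read against 36.1% of all genes. Those without a peak include ORC2, ORC6, SUM1, which encodes a repressor of meiotic genes, and RIF1, which encodes a partner of Rap1 at telomeres. Both Orc1 lists covered more than every other list near 5 of the 31, namely SAS2, YKU70, ORC3, ORC4 and ASF1, read against 10.0% of all genes. At SAS2, an acetyltransferase gene, and ORC3 only Orc1 had peaks. They covered 282 and 338 bp of the SAS2 window and 316 and 230 bp of the ORC3 window. At YKU70, a gene of a telomere-end and repair protein, Orc1 covered 950 and 1906 bp and the others 708 to 785 bp. For each of the 5 the exact permutation p was 0.0667, the smallest possible (two-sided, adjusted p = 0.604). These 5 were picked because both Orc1 lists covered more than every other list. The p-value therefore largely restates that choice, and no conclusion is drawn from it.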

How the data were processed

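6 narrowPeak lists were used, 1 per immunoprecipitate, so peaks had been called per library. Per the submitters' processing notes, the tools were MACS2 2.2.7.1, Bowtie2 2.3.4.1 and cutadapt 2.10. Their settings and the build are not stated in the labels. The deposited values are a fold enrichment (ratio to the control) and −log10 p and −log10 q values per peak. The word subsample in the peak names is not explained by the labels. The q-values were used for thresholds, to pick a region's main peak and beside fold values in the SIR1 span.

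Sequences were matched to chromosomes of ASM24337v1 by number. Summits fell outside genes for 65.5% to 76.3% with that match. The share was at most 36.0% in the 28 other matches tried, each of a sequence to a chromosome of lower number. Sequence 1 was tried with chromosome 1 alone. Positions are 1-based. Covered lengths were cut at the window edges. Python 3.11.15, NumPy 2.4.6, pandas 2.3.3 and matplotlib 3.10.9 were used, and the code was tested on simulated data. P-values were adjusted by the Benjamini-Hochberg method. The genes named are the members, the genes holding or flanking their summits, and those of the 38-symbol list with a region of all 6 lists within 1 kb. Further names from that list were chosen after their values were seen. Members, lists and tests were chosen with earlier results of these data known. Alternatives were other windows, −log10 q of at least 10, equal numbers of peaks (248 per list) and 50% reciprocal overlap. Others were summits in place of peak edges, a replicate block and leaving out each library. Input and mock samples entered only through those calls, and the control strain number in the Orc1 peak names is not explained by the labels.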

Additional observations from a re-analysis of the deposited data

How the results depend on the processing

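Of 95 recalculated values, 88 were counted as unchanged. For covered-length differences this meant the same direction and the same side of the threshold. Counts of members and the SIR1 span ratio had wide tolerances. A count of 2 against 3 members and span ratios of 2.02 and 5.30 against 3.66 thus passed as unchanged. No covered-length test could pass 0.05 in this design, so the number counted as unchanged says little of stability. The difference at RAP1 changed sign at −log10 q of at least 10 (389 bp, exact permutation p = 0.0667) and, when each library was left out in turn, ranged from −723 to 344 bp. That at SIR4 ranged from −264 to 93.8 bp. It was −15.25 bp at −log10 q of at least 10 and turned only without Orc4 library 1, and the cause was not tested. That at SIR1 ranged from 3693.5 to 9074.5 bp. At 20 kb, SIR2 gave −35 bp in place of 0 bp. The count of members where both Orc1 lists covered more than every other list rose from 1 to 3 at −log10 q of at least 10 and to 2 with equal numbers of peaks, and was 1 to 3 with libraries left out. Counts of members at alternative settings have no share of all genes beside them, since that was not recalculated.

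The labels give the subunits the same replicate numbers. Across 198 regions the log2 ratio of library 2 to library 1 correlated at 0.064, −0.151 and 0.189 between pairs of subunits, so the numbers were not taken as pairs. With a replicate block the differences were the same, 6384 bp at SIR1, 248 at ABF1, −433.5 at RAP1, −167 at SIR4 and 0 at SIR2, with exact permutation p of 0.111 (the smallest of 9 arrangements), 0.222, 1, 0.889 and 1.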
